A study of Arabidopsis thaliana with 12 samples.

Results

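Histone genes were followed through a gamma-ray experiment on whole Arabidopsis seedlings. The list held 45 loci that encode the core histones H2A, H2B, H3 (with the centromeric CENH3) and H4 and the linker histone H1, and left out both H2AX genes. The rule that names the loci is gene family and uses no measured value, although the list was drawn up with earlier results of these arrays known. Of the 45 loci, 34 were among the 16947 loci of the deposited table, namely 10 of 11 H2A, all 11 H2B, 9 of 12 H3, 2 of 8 H4 and 2 of 3 H1 genes. HTA8, the H3.3 genes AT4G40030 and AT4G40040, CENH3 (HTR12), 6 H4 genes and HIS1-3 were not analysed here. Tests were run on the 9889 loci that reached 4 on the log2 scale on 3 or more arrays, 30 of the 34 histone genes among them. HTA4, the H2B gene AT1G08170 and the H3 genes AT1G13370 and AT1G75600 had all 12 values under 4 and were not tested. RefSeq (TAIR10.1) gave a gene name for 20 of the 45 loci, and the others are given by locus.

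Nuclear DNA is wrapped around octamers of H2A, H2B, H3 and H4, and H1 binds the linker DNA between them. Most histone transcripts are made in S phase, when new chromatin is assembled, so their level in a tissue follows its replicating cells. In plants H3.1 is laid down mainly during replication and H3.3 outside it. H2A.W marks heterochromatin, H2A.Z sits at many genes, and H2AX is phosphorylated at DNA breaks.

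The 12 arrays fell into 4 groups of 3 biological replicates, all of the Col-0 ecotype and 5 days old. They were wild type untreated, wild type gamma-irradiated, gmi1-1 untreated and gmi1-1 gamma-irradiated. Irradiated seedlings received 100 Gy from a cobalt source and were harvested 1.5 h later. The line gmi1-1 (SALK_036931) is a single insertion line in GMI1 (AT5G24280), a gene that depends on the kinase ATM, and the question behind the comparison is whether loss of GMI1 alters the transcriptional response. The labels do not say how many seedlings made up a sample or whether untreated plates were handled like the irradiated ones. Values are log2 expression values as deposited, so a difference of 1 is a doubling. Since each probe set has its own response, a gene is compared with itself across arrays and not with other genes. In RNA of whole seedlings, fewer cells of a type and less RNA per cell cannot be told apart.

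Some arrays stood apart. GMI1 was between 9.97 and 10.92 on the irradiated wild type arrays and at 2.53 or lower on the other 9. The library labelled gmi1-1 untreated replicate 1 had the damage-induced repair gene BRCA1 (AT4G21070) at 10.54, against 2.70 and 2.90 in untreated replicates 2 and 3 and 10.56 in the library labelled gmi1-1 irradiated replicate 1. The former library therefore goes against its label. Over all tested loci both correlated at r = 0.990, against 0.930 for the untreated and irradiated gmi1-1 arrays numbered 2. Results are given with and without the pair numbered 1. The gmi1-1 irradiated replicate 3 array had a median of 4.23 against 4.49 to 4.81 on the others. Its 5' GAPDH control probe set minus the middle one, a measure of RNA integrity and labelling, was -1.3, against -0.47 to -0.17 on the others. Of the markers for the labelled tissue, 4 of 6 root genes (SHR, SCR, WER and COBL9) and 3 of 4 shoot genes (TMM, SPCH and FAMA) were measurable, while the meristem genes PLT1, PLT2 and STM stayed under 4 on all arrays, as did 3 seed storage and 2 pollen genes.

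In irradiated wild type seedlings most histone genes were lower, and 2 neighbouring H3 genes rose. The irradiation effect had a median of -0.73 over the 30 tested histone genes, against -0.11 over all 9889 loci. The effect was negative for 26 of them, and it ran from -1.82 for the H2B gene AT2G37470 to 2.64 for HTR11. In limma's moderated test with Benjamini-Hochberg adjustment over all loci, 4 of the 30 fell, where 1.33% of all loci did, and 2 rose, where 3.21% did. Over the 34 genes without the filter the counts were 4 and 2 as well, where 152 and 340 of all 16947 loci fell and rose. The 3 irradiated arrays all lay below the 3 untreated arrays for 21 of the 30 genes, where 17.3% of all tested loci behaved so, and all above for 4, where 10.8% did. In the remaining 5 genes the groups overlapped.

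**Figure D1:**
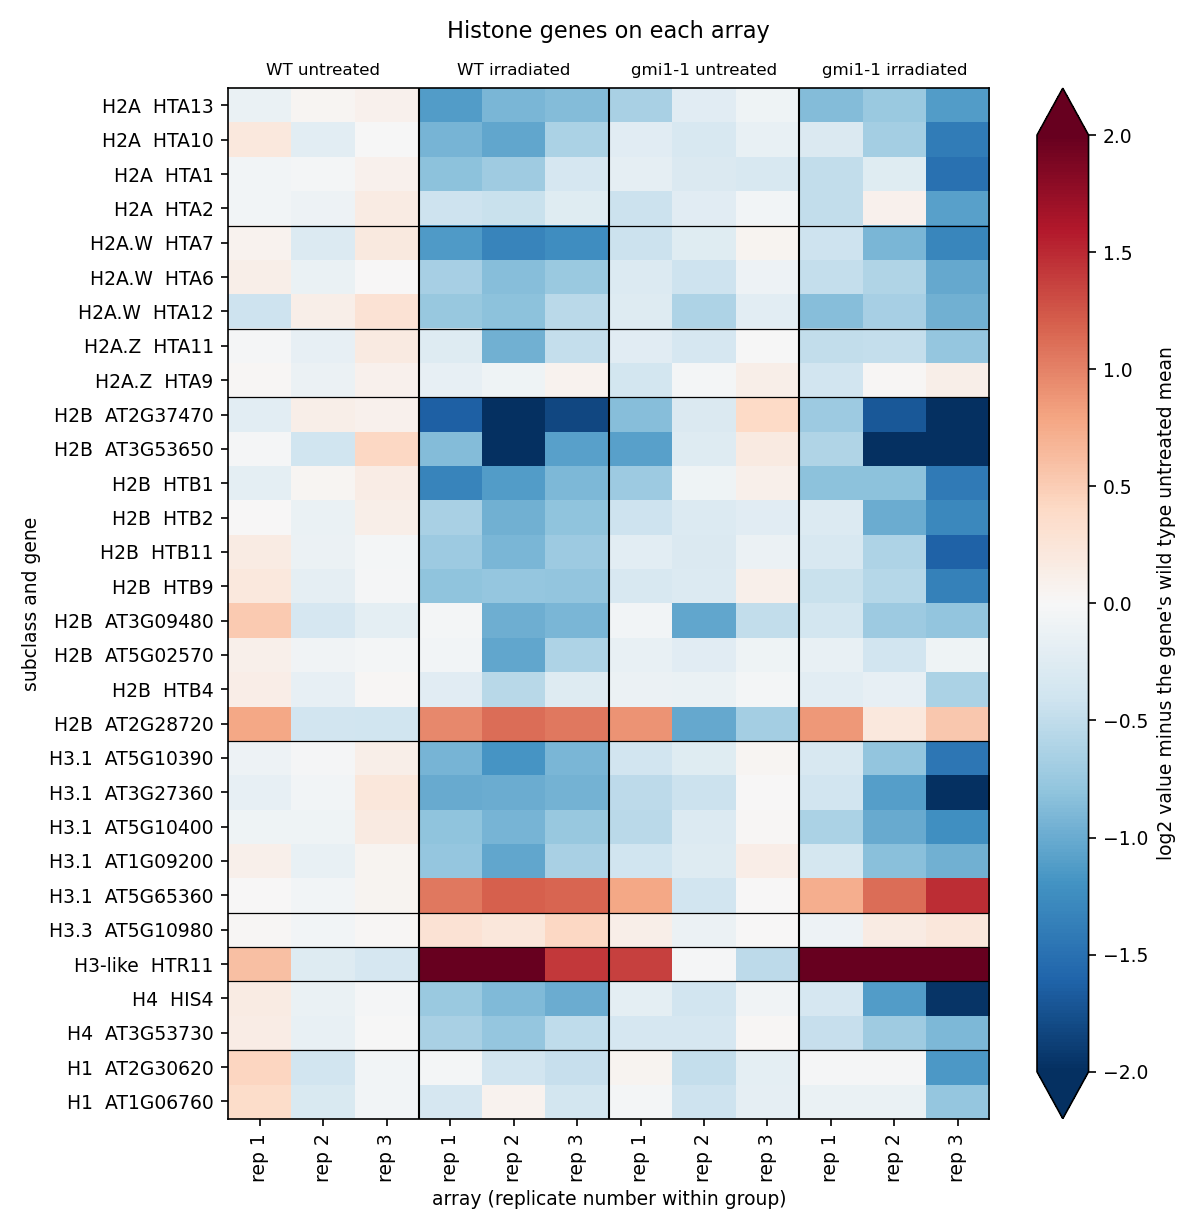
Each row is 1 of the 30 tested histone genes, grouped by subclass, and each column 1 array, with the groups divided by vertical lines. Colour gives the log2 value minus the mean of the gene's 3 wild type untreated arrays (blue lower, red higher, colours saturate at the ends of the scale). Most rows are blue in the irradiated columns, HTR11 and AT5G65360 are red there, and the gmi1-1 irradiated replicate 3 column is the bluest.

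The number of calls rested on few arrays. It was 6 with all 12 arrays. Leaving out wild type untreated replicate 1, 2 or 3 gave 3, 1 and 0 calls in that order, and leaving out wild type irradiated replicate 1, 2 or 3 gave 2, 0 and 1. The spread is pooled over the 4 groups, and the count rose to 11 once the irradiated gmi1-1 library numbered 1 was left out and to 16 once the one numbered 3 was. Calls among all 9889 loci moved too, from 449 with all 12 arrays. They were 302, 176 and 167 without wild type untreated replicate 1, 2 or 3. Without wild type irradiated replicate 1, 2 or 3 they were 372, 111 and 250. Without irradiated gmi1-1 replicate 1 or 3 they were 587 and 591. Without both gmi1-1 libraries numbered 1 the number of histone genes called was 12. Of the 30, 10 fell, where 3.21% of all loci did, and 2 rose, where 4.14% did.

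The H3 genes split. Of the 7 tested H3 genes, 5 encode H3.1, the form incorporated at the replication fork, and their irradiation effects in wild type ran from -1.01 to 1.14. The 1 that rose was AT5G65360. In wild type its log2 values, in the order of replicates 1 to 3 here and in what follows, were 11.41, 11.36 and 11.46 without treatment and 12.46, 12.61 and 12.57 after irradiation. The irradiated arrays were all higher, and the gap between the groups exceeded the range within either. The mean went from 11.41 ± 0.05 (SD, n = 3) to 12.55 ± 0.08, a log2 change of 1.14 (SE 0.28, limma adjusted p = 0.0438), or 2.20-fold. This call was lost without any 1 of the 6 wild type arrays, without gmi1-1 untreated replicate 3, without gmi1-1 irradiated replicate 2, with median centring and with the replicate number as a block (adjusted p = 0.0501), while the change itself stayed between 1.105 and 1.18 with single arrays left out. Without both gmi1-1 libraries numbered 1 the adjusted p was 0.0054.

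The other 4 H3.1 genes were lower on every irradiated wild type array. AT5G10390 had 9.74, 9.83 and 9.97 untreated and 8.92, 8.67 and 8.93 irradiated, a difference of -1.01 (SE 0.26, limma adjusted p = 0.052). AT5G10400, the next gene on the chromosome, had 10.30, 10.30 and 10.58 untreated and 9.59, 9.47 and 9.63 irradiated. Its difference was -0.83 (adjusted p = 0.0519). Neither pair of groups overlapped. AT1G09200 had 11.49, 11.24 and 11.45 untreated and 10.62, 10.36 and 10.74 irradiated, with a difference of -0.82 (adjusted p = 0.0647). AT3G27360 was at -0.98 (adjusted p = 0.152). With all 12 arrays none of the 4 passed the test in wild type. Without both gmi1-1 libraries numbered 1, AT5G10390 (adjusted p = 0.0202), AT5G10400 (0.0265) and AT1G09200 (0.0353) fell and AT3G27360 had adjusted p = 0.0541.

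HTR11 (AT5G65350), an H3 gene next to AT5G65360, rose from near background. Its log2 values were 3.41, 2.55 and 2.48 in untreated and 5.77, 6.36 and 4.22 in irradiated wild type. The groups did not overlap, although irradiated replicate 3 lay well below the other irradiated arrays. The change was 2.64 (SE 0.55, adjusted p = 0.0198). HTR11 reached the level needed for a test only on irradiated arrays and in the library labelled gmi1-1 untreated replicate 1, so it had to differ to be tested, and the size of its change is approximate. Its call was lost without wild type untreated replicate 2 or 3 or irradiated replicate 1 or 2. The only measured H3.3 gene, AT5G10980, had 12.48, 12.39 and 12.48 untreated and 12.74, 12.68 and 12.87 irradiated. Its irradiated arrays were all higher, by 0.31 (SE 0.17, adjusted p = 0.367), which did not pass the test.

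**Figure D2:**
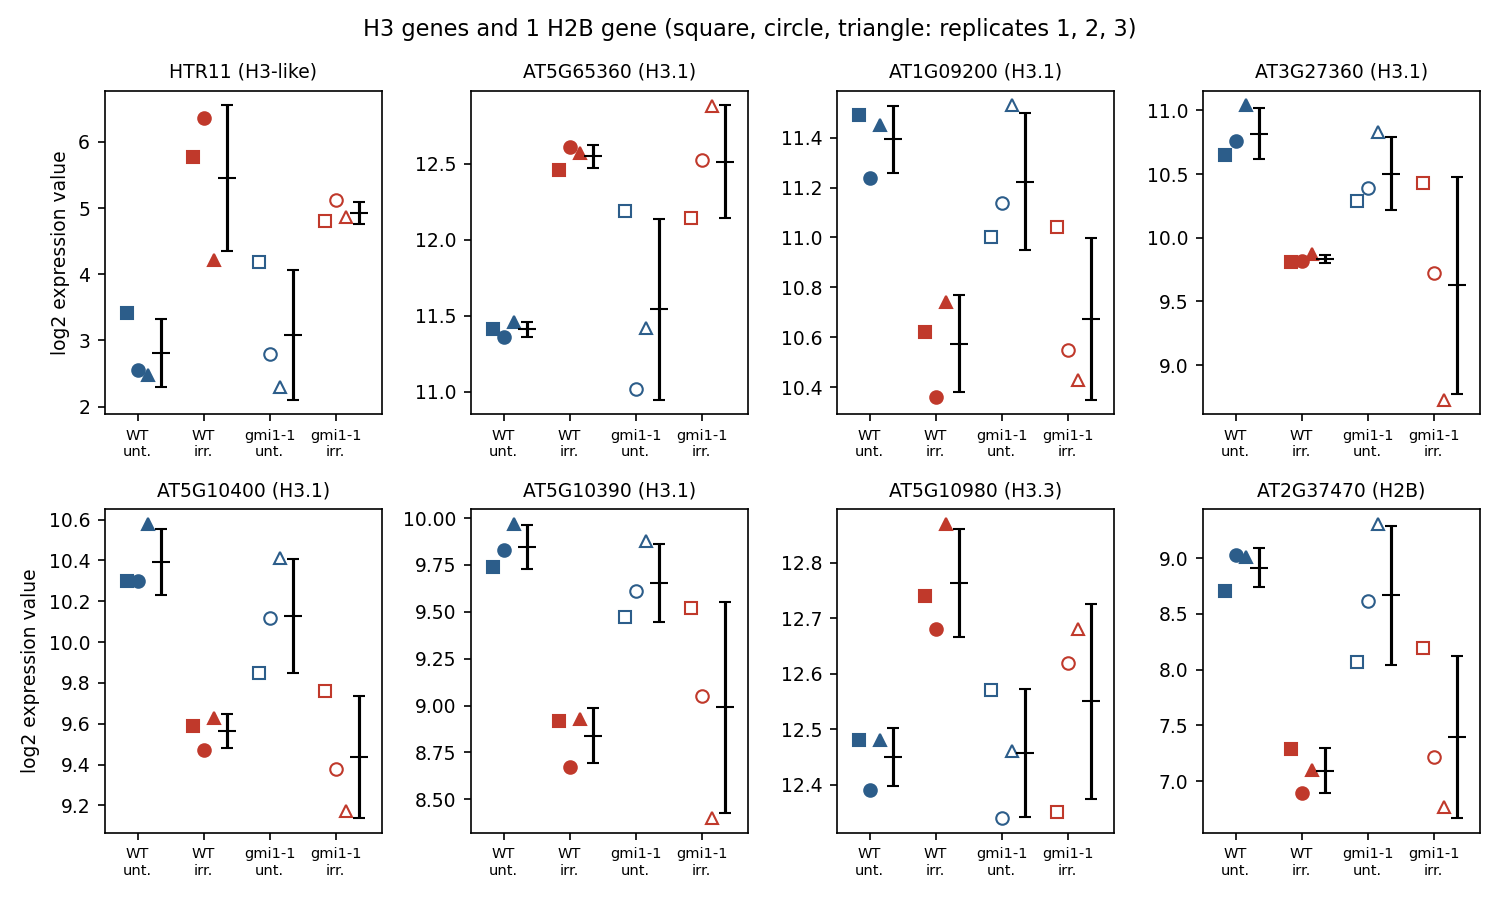
Log2 expression values of the 7 tested H3 genes and the H2B gene AT2G37470 by group, with 1 symbol per array and the group mean ± SD (n = 3) to the right of each group; each panel has its own axis, which does not start at 0. HTR11 and AT5G65360 are higher on all 3 irradiated wild type arrays, the other 4 H3.1 genes and AT2G37470 are lower on them, and the library labelled gmi1-1 untreated replicate 1 (open blue square) lies near the irradiated arrays for AT5G65360.

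Among the H2A genes, all 9 tested had a negative irradiation effect in wild type, from -1.23 to -0.06, and 2 of the 9 fell. HTA7, an H2A.W gene, had 10.36, 10.02 and 10.48 untreated and 9.15, 8.97 and 9.05 irradiated. All irradiated arrays lay below all untreated ones. The change was -1.23 (SE 0.25, adjusted p = 0.016). Both other H2A.W genes were lower on every irradiated array, HTA6 by -0.75 (adjusted p = 0.0519) and HTA12 by -0.71 (adjusted p = 0.107). HTA13, a canonical H2A gene, had 10.58, 10.75 and 10.80 untreated and 9.60, 9.79 and 9.84 irradiated. It fell by 0.97 (SE 0.20, adjusted p = 0.0198), again with no overlap.

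The remaining canonical H2A genes HTA10, HTA1 and HTA2 were at -0.87, -0.62 and -0.37 (adjusted p = 0.0993, 0.279 and 0.498). HTA9, an H2A.Z gene, had the smallest difference of the family. Its values were 11.63, 11.49 and 11.68 untreated and 11.44, 11.51 and 11.67 irradiated, so its groups overlapped (-0.06, SE 0.20, adjusted p = 0.902). HTA11, the other measured H2A.Z gene, was at -0.57 (adjusted p = 0.193), with all irradiated arrays lower. Leaving out wild type untreated replicate 3, irradiated replicate 2 or irradiated replicate 3 ended the calls of both HTA7 and HTA13. HTA7 lost its call also without untreated replicate 1, and HTA13 without untreated replicate 2 or irradiated replicate 1. Of both H2AX genes, which were not on the list, HTA5 fell by 0.98 (adjusted p = 0.0345) and HTA3 was at -0.36 (adjusted p = 0.304).

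Among the H2B genes, 9 of 10 tested had a negative effect in wild type and 2 fell. The deepest fall of any histone gene was that of AT2G37470. Its values were 8.71, 9.03 and 9.01 untreated and 7.29, 6.89 and 7.10 irradiated. The groups lay more than 1 apart. The change was -1.82 (SE 0.37, adjusted p = 0.0168), or 3.54-fold lower, and the call was lost without wild type untreated replicate 2 or 3 or irradiated replicate 2 or 3. HTB1 had 10.20, 10.44 and 10.54 untreated and 9.08, 9.28 and 9.50 irradiated. It fell by 1.11 (SE 0.26, adjusted p = 0.0327), a call that was lost without any 1 of the 6 wild type arrays.

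Of the H2B genes that did not pass with all 12 arrays, AT3G53650 had 6.82, 6.44 and 7.26 untreated and 5.98, 4.74 and 5.76 irradiated (-1.35, SE 0.47, adjusted p = 0.145). HTB2, HTB11 and HTB9 were at -0.80, -0.79 and -0.79 (adjusted p = 0.099, 0.158 and 0.112). HTB4 was at -0.35 (adjusted p = 0.372). All of these had every irradiated wild type array below every untreated one, while AT3G09480 (-0.64) and AT5G02570 (-0.57) had overlapping groups. AT5G02570 lay near background, with a wild type untreated mean of 4.10. Without both gmi1-1 libraries numbered 1, AT3G53650 (adjusted p = 0.0366) and HTB2 (0.03) fell.

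The H2B gene AT2G28720 went the other way. Its values were 8.62, 7.46 and 7.45 in untreated and 8.81, 8.96 and 8.90 in irradiated wild type, and the difference of 1.05 (SE 0.46) did not pass the test (adjusted p = 0.247). Over both genotypes it was at 0.93 (adjusted p = 0.0894), and it rose by 1.14 (adjusted p = 0.0097) without both gmi1-1 libraries numbered 1 and by 1.05 (adjusted p = 0.0457) without gmi1-1 irradiated replicate 3 as well. Both groups were kept apart by a narrow margin at replicate 1. In gmi1-1 it had 8.74, 6.82 and 7.17 untreated and 8.71, 8.05 and 8.39 irradiated. In each genotype the untreated array numbered 1 was thus the highest of its group by more than 1, and in wild type that array does not carry the damage response (BRCA1 at 2.78). What sets its level there was not tested.

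Both measured H4 genes were lower on every irradiated wild type array. HIS4 (AT2G28740) had 9.83, 9.52 and 9.63 untreated and 8.92, 8.78 and 8.67 irradiated, a difference of -0.87 (SE 0.33, adjusted p = 0.178). AT3G53730 was at -0.64 (adjusted p = 0.0989). Neither passed the test in wild type. The linker histone genes AT1G06760 and AT2G30620 had the smallest differences beside HTA9, at -0.21 and -0.29 (adjusted p = 0.685 and 0.655), and their groups overlapped. AT1G06760, for example, had 11.22, 10.55 and 10.80 untreated and 10.52, 10.93 and 10.49 irradiated.

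**Figure D3:**
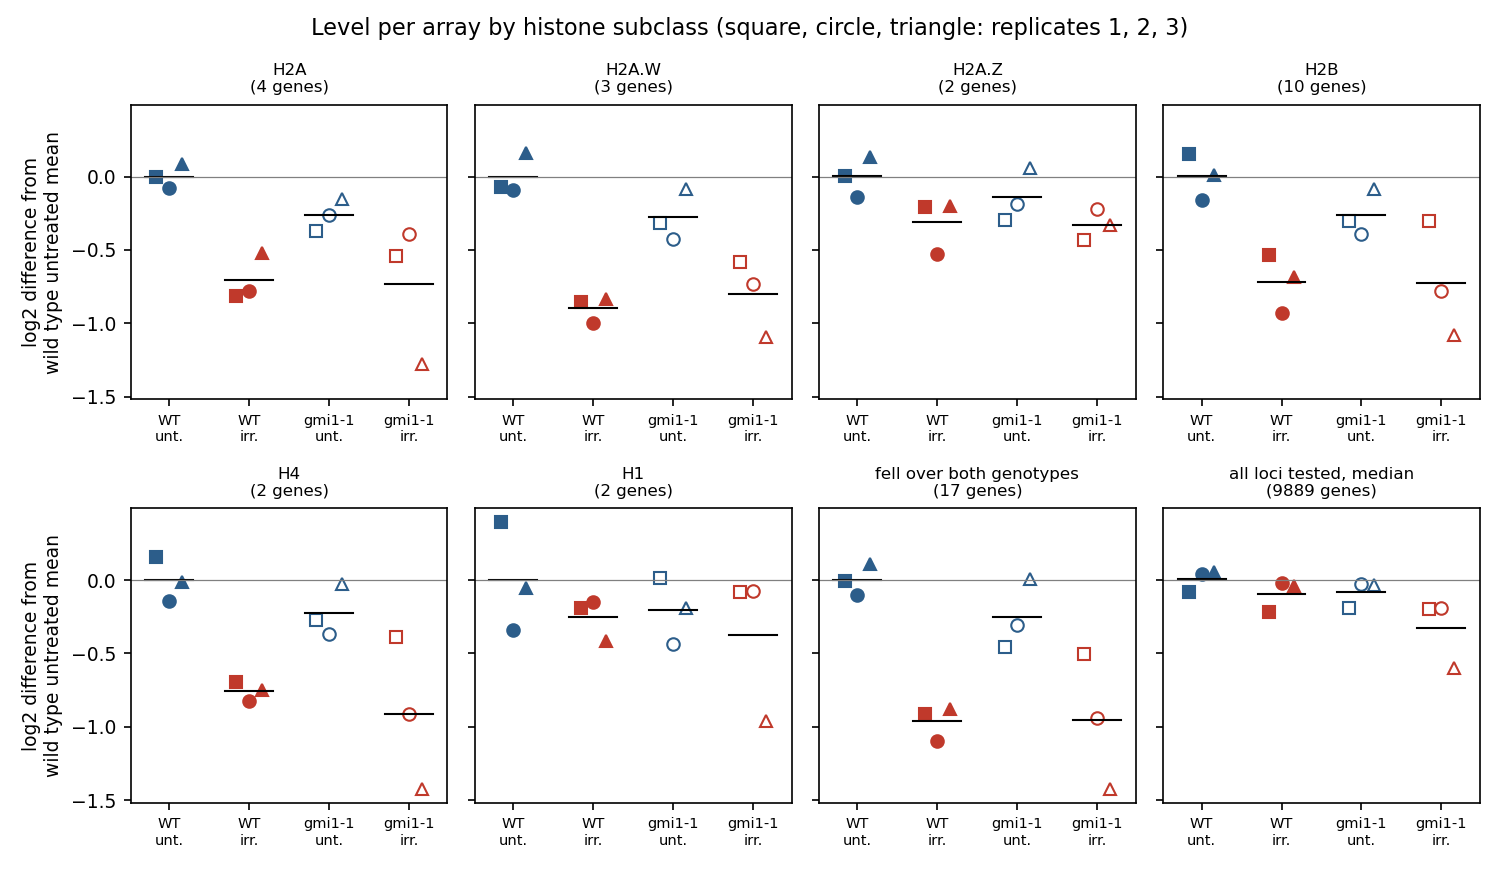
Each panel gives, per array, the mean over the genes of 1 histone subclass of the log2 difference from each gene's wild type untreated mean, with the group mean as a line; the last panels show the 17 genes that fell over both genotypes and the median over all 9889 tested loci. H2A, H2A.W, H2B and H4 genes lie lower on all irradiated wild type arrays, H1 genes overlap, and gmi1-1 irradiated replicate 3 is the lowest array in each panel shown but that of H2A.Z, all loci included. The H3 genes are not in this plot.

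In gmi1-1 as labelled no histone gene passed the test, and none of all loci did (0%), while 17 histone genes and 1306 loci had an unadjusted p under 0.05 in limma. The median effect was -0.47 over the 30 genes and -0.23 over all loci. With quantile normalization the medians were -0.27 and -0.02, and with median centring -0.30 and -0.06, so a part of the shift is shared by all loci on these arrays. Both gmi1-1 libraries numbered 1 lay close to each other: for AT5G65360 the untreated label had 12.19 and the irradiated label 12.14, and for HTR11 they had 4.18 and 4.80. Over the 17 genes that fell over both genotypes, the mean difference from wild type untreated was -0.46 under the untreated label and -0.50 under the irradiated label. It was -0.31 and 0.01 in gmi1-1 untreated replicates 2 and 3, and -0.94 and -1.42 in gmi1-1 irradiated replicates 2 and 3. On the irradiated wild type arrays it was -0.91, -1.10 and -0.88. Both libraries numbered 1 thus lay between the other untreated and irradiated arrays for these genes. The 17 genes were picked because they fell, and over all tested loci the median was also lower in the library labelled untreated replicate 1, at -0.19 against -0.03 and -0.04 in replicates 2 and 3.

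Without both libraries, which leaves replicates 2 and 3 in each gmi1-1 group, 9 of 30 histone genes fell in gmi1-1, where 5.13% of all loci did, and 2 rose, where 2.46% did. The median effect was -0.60 over the histone genes and -0.35 over all loci. The 2 that rose were AT5G65360 and HTR11, but HTR11 had to differ to be tested, so only the rise of AT5G65360 is free of the filter. AT5G65360 had 11.02 and 11.42 untreated and 12.52 and 12.88 irradiated, a change of 1.48 (SE 0.24, limma adjusted p = 0.0050). HTR11 went from 2.79 and 2.29 to 5.12 and 4.87 (2.46, SE 0.59, adjusted p = 0.0316). Both genes were higher on both irradiated arrays by more than 1.

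The H2B gene AT2G37470 had 8.62 and 9.31 untreated and 7.22 and 6.77 irradiated in replicates 2 and 3 of gmi1-1, and fell by 1.97 (SE 0.30, adjusted p = 0.0033). AT3G53650 had 6.58 and 7.02 untreated and 4.78 and 4.80 irradiated. It fell by 2.01 (SE 0.41, adjusted p = 0.0158). The others that fell were HTA7 by 1.02, HTB1 by 1.13, HTB2 by 0.89, HIS4 by 1.31 and the H3.1 genes AT3G27360, AT5G10400 and AT5G10390 by 1.39, 0.99 and 1.02. Of the 10 genes that fell in wild type on the same 10 arrays and the 9 that fell in gmi1-1, 7 were shared, that is 7 of 10 and 7 of 9: AT2G37470, AT3G53650, HTA7, HTB1, HTB2, AT5G10400 and AT5G10390. The groups of both genotypes share no array but share 1 estimate of the spread. Over all loci 317 fell in wild type and 507 in gmi1-1 on the same 10 arrays. How many of those were shared is not given here, so the overlap shows nothing particular to histone genes.

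These gmi1-1 falls rest partly on irradiated replicate 3, the array with the low median. It was the lowest of the 12 arrays for 19 of the 30 histone genes, and for 46% of all tested loci. Both irradiated arrays lay below both untreated ones for 19 of 30 histone genes, where 46.8% of all tested loci behaved so. Without that array too, which leaves 1 irradiated gmi1-1 array whose spread is taken to be that of the other groups, 1 of 30 histone genes fell, where 1.31% of all loci did, and 1 rose, where 2.15% did. They were AT2G37470 and AT5G65360. The part of RNA quality on that array in the falls was not tested. Of the root and shoot markers, 0 of 4 and 0 of 3 were called in limma in wild type, where 449 of all loci were. The stomatal lineage gene TMM fell in gmi1-1 on the same 10 arrays by 1.72 (limma adjusted p = 0.0103), where 5.13% of all loci fell. With gmi1-1 irradiated replicate 3 left out too, the lowest effect among the 3 tested shoot markers in gmi1-1 was -1.315. The part of tissue makeup in the histone values was not tested.

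**Figure D4:**
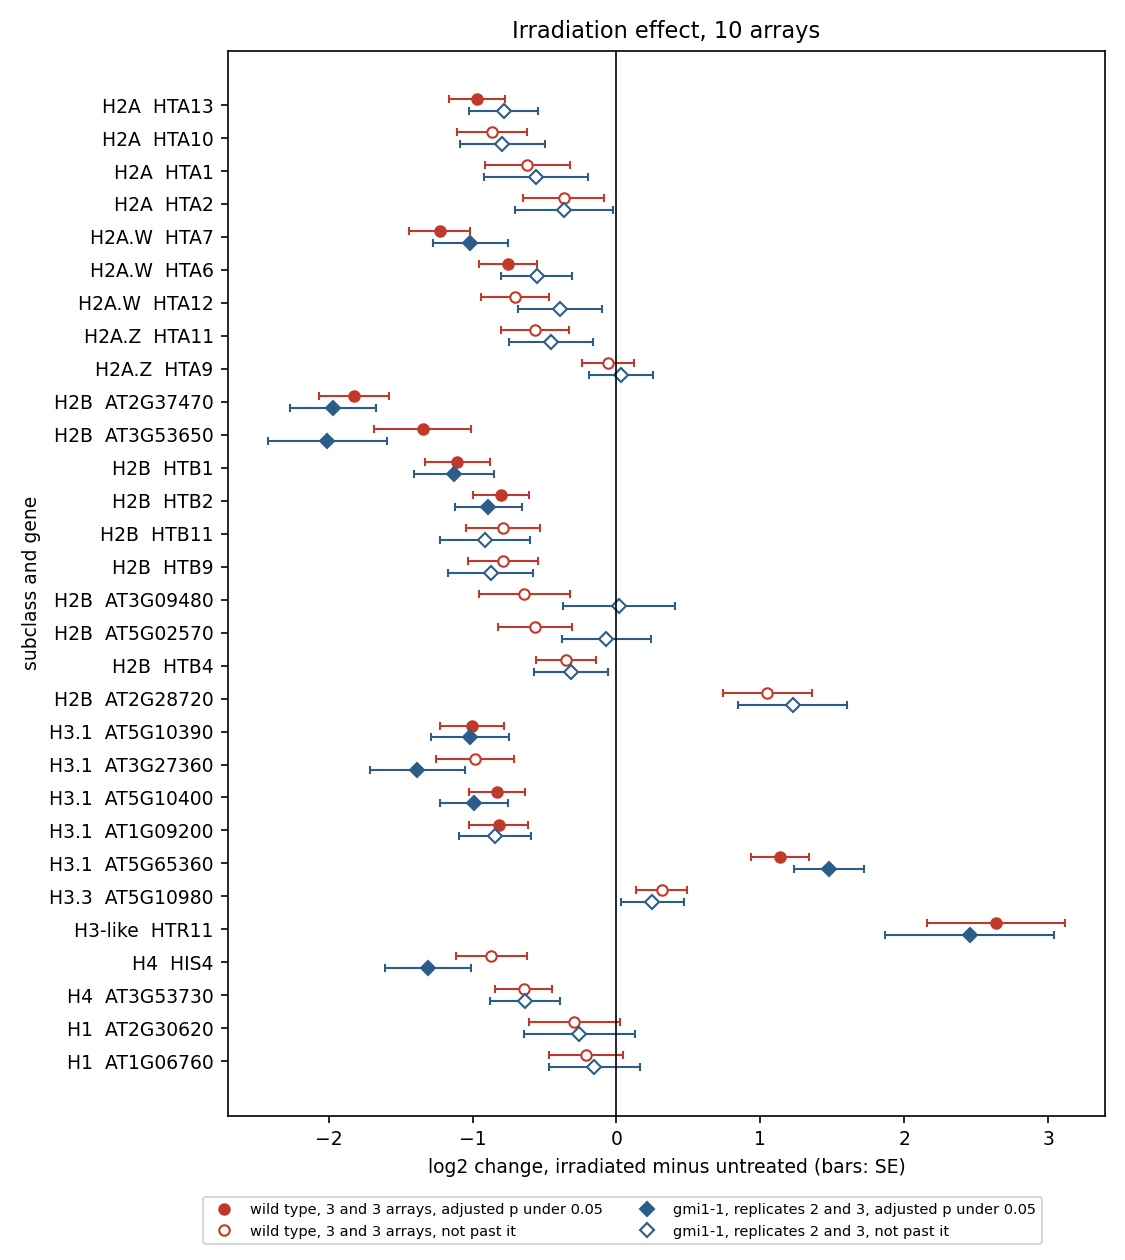
Log2 change from untreated to irradiated for each tested histone gene in wild type (circles, 3 against 3 arrays) and gmi1-1 (diamonds, replicates 2 and 3), with bars of 1 SE from limma's fit to 10 arrays. Filled symbols have an adjusted p under 0.05. The estimates of both genotypes lie close together for most genes, HTR11 and AT5G65360 lie to the right of 0 in both, and HTA9 and both H1 genes lie near 0.

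Over both genotypes together, with all 12 arrays, 17 of 30 histone genes fell, where 6.29% of all loci did, and 2 rose, where 4.09% did. The 17 were 2 canonical H2A genes (HTA10 and HTA13), all 3 H2A.W genes, 6 H2B genes, 4 H3.1 genes and both H4 genes. No H2A.Z, H3.3 or H1 gene was among them, and whether these subclasses differ from the rest was not tested. The changes of the 17 ran from -1.55 for AT2G37470 (SE 0.26, adjusted p = 0.0043) to -0.55 for AT3G53730 (adjusted p = 0.0285). The 2 that rose were AT5G65360 by 1.05 (adjusted p = 0.0079) and HTR11 by 2.24 (adjusted p = 0.0050). HTR11 had to differ to be tested here as well. This comparison counts the library labelled gmi1-1 untreated replicate 1 as untreated. Without both libraries numbered 1 there were 16 falls and 3 rises, where 1347 and 542 of all 9889 loci fell and rose. The third rise was that of the H2B gene AT2G28720. With single arrays left out the number called ran from 7 to 19, where 474 to 1528 of all loci were called. It was 7 without untreated replicate 3 of either genotype, 10 without untreated replicate 2 of either genotype or irradiated replicate 2 of wild type, and 12 without irradiated replicate 1 of wild type or irradiated replicate 2 of gmi1-1.

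No difference between the genotypes passed the test for any histone gene. For the difference in irradiation effect (gmi1-1 minus wild type), 0 of 30 were called, where 0.0101% of all loci were, and 0 of 30 had an unadjusted p under 0.05 in limma. The estimates ran from -0.79 for HTR11 to 0.56 for HTA7, with SEs of 0.25 to 0.78, so differences of this size could not be resolved with these arrays. Without both gmi1-1 libraries numbered 1 they ran from -0.66 to 0.66. With all 12 arrays the estimate was negative for 5 of the 30, with a median of 0.165 against -0.14 over all loci. Without those libraries it was negative for 13 of the 30, with a median of 0.02 against -0.26. For gmi1-1 against wild type untreated, 0 of 30 were called, where 0.0101% of all loci were, and 0 had an unadjusted p under 0.05. The estimate was negative for 27 of the 30, with a median of -0.22 against -0.09 over all loci, and of -0.17 against -0.03 without the libraries numbered 1, where 1 of 30 had an unadjusted p under 0.05. For gmi1-1 against wild type irradiated, 0 of 30 were called, where 0.0101% of all loci were, and 0 had an unadjusted p under 0.05. That median was -0.04, against -0.24 over all loci, and 19 of the 30 estimates were negative. Without the libraries numbered 1 it was -0.12, against -0.29 over all loci. There 25 of the 30 were negative and 1 of 30 had an unadjusted p under 0.05. With all 12 arrays, quantile normalization turned the median to 0.12, against 0.00 over all loci, and median centring to 0.21, against 0.01.

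Among other genes of chromatin replication, 1 replication fork gene fell in wild type with all 12 arrays and no histone chaperone was called there. Of 9 measured genes of the replication fork, 1 fell in wild type, where 1.33% of all loci did. It was PCNA1, the sliding clamp, by 1.12 (limma adjusted p = 0.0394), and the list's median was -1.23. Without both gmi1-1 libraries numbered 1, 6 of 9 fell in wild type, where 3.21% of all loci did, and 6 of 9 in gmi1-1, where 5.13% did. Among them were MCM2, MCM4 and MCM7 of the replicative helicase and the licensing factor CDT1A. Those were at -1.40, -1.80, -1.58 and -1.34 in wild type. Of 9 measured histone chaperone genes 7 were tested. In limma 0 of 7 were called in wild type with those libraries, where 449 of all loci were, or without them, where 726 were. In either case 2 had an unadjusted p under 0.05, where 1804 and 2042 of all loci did, and the list's median was 0.02. The largest differences were those of NRP2 at -0.49 (adjusted p = 0.224) and NAP1;3 at -0.47 (adjusted p = 0.259), chaperones of the NAP family. Over both genotypes NRP2 was at -0.48 (adjusted p = 0.0547) with all arrays, and it fell by 0.55 (adjusted p = 0.0336) without both gmi1-1 libraries numbered 1 and by 0.60 (adjusted p = 0.0378) without gmi1-1 irradiated replicate 3 as well. ASF1B and ASF1A, which carry H3 and H4, were at -0.26 and 0.30. Of 9 tested genes of G2 and M phase, 8 fell in wild type, where 1.33% of all loci did. They ran from -3.77 for SYP111 to -1.62 for CDKB2;2 (the others were CYCB1;3, CYCB1;4, CYCB2;4, CDKB2;1, AUR1 and HIK). The damage-induced cyclin CYCB1;1 rose by 5.20, where 3.21% of all loci rose. The list's median was -2.31. These lists were chosen with earlier results of these data known.

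The identity of each signal has a limit. Histone genes of 1 family have near-identical coding sequences, and no probe sequences were at hand. How far the probe sets of AT5G65360, HTR11 and the other H3 genes respond to each other's transcripts could not be checked.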

How the data were processed

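RNA of 12 seedling samples was hybridised to Affymetrix arrays after one-cycle biotin labelling, according to the protocols in the labels. The authors deposited log2 values, 1 per probe set, made with GCRMA per the submitters' processing notes. This method corrects background by probe sequence, normalizes between arrays and shrinks differences near background. The sources used here name no GCRMA version, array design or genome build, so no coordinates are given, and the log2 scale was taken from the values.

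With limma 3.58.1 (lmFit, eBayes) in R 4.3.3, group means were fitted on all 12 arrays, with two-sided p-values adjusted over the 9889 loci with a value of 4 or more on at least 3 arrays, and called at 0.05. The fit was tested on simulated data, with independent values and the same spread for every locus. No array stood apart in that simulation, so it says nothing of how the departing arrays here affect the calls. Groups and replicate numbers come from the sample titles, and the number of arrays limits the precision. Nothing says that replicates came from separately grown plates, so p-values cover the spread between these samples. Deviations from group means of same-numbered arrays correlated over 0.1 in all 3 pairs between genotypes, both untreated (0.54 to 0.67) and irradiated (0.17 to 0.41). By this check, and not by the labels, the numbers pair the genotype comparisons. The check is loose for untreated arrays, since those numbered 2 and 3 also correlated across numbers (0.40 and 0.35). The untreated pair numbered 1 holds the library that goes against its label. Between untreated and irradiated arrays, deviations of same-numbered arrays correlated over 0.1 in 2 of 3 pairs in wild type and 1 of 3 in gmi1-1. The main fit has no replicate block. Alternatives were the block, other filters, normalizations, priors, weights on arrays, fits restricted to the compared groups, and arrays left out. The comparison over both genotypes was added later. Every listed locus may be named. Of the other lists, called genes and those with the smallest p are named. The members and lists were chosen with earlier results of these data known. No promoter motifs were searched, since no sequences were at hand.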

Additional observations from a re-analysis of the deposited data

How the results depend on the processing

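The median effect over the histone genes stayed negative under all alternatives run, between -0.81 and -0.62 in wild type and between -0.60 and -0.27 in gmi1-1. The numbers called did not hold. In wild type 6 of 30 were called in the report, where 449 of all 9889 loci were. With an intensity trend it was 11, where 462 loci were called, and with array weights 18, where 1407 were. A fit of only the wild type groups gave 15, where 591 loci were called. Without both gmi1-1 libraries numbered 1 it was 12, where 726 were. With single arrays left out it was 0 to 16, where 111 to 591 loci were called. In gmi1-1, against 0, the counts were 4 with array weights, 11 without both libraries numbered 1, 2 without these and irradiated replicate 3, 9 without all 4 arrays numbered 1, and 0 to 3 with single arrays left out. The gmi1-1 calls among all 9889 loci moved as well. They were 0 in the report, 417 with array weights and 750 without both libraries numbered 1. Without all 4 arrays numbered 1 they were 1027, and with single arrays left out 0 to 327. Over both genotypes the count of histone genes ran from 7 to 19 with single arrays left out, against 19. Over all loci it ran from 474 to 1528, against 1026. The causes were not tested, and the fits that left arrays out also rest on fewer arrays. No genotype comparison called a histone gene under any alternative run.

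Same-numbered arrays of both genotypes deviated together, and in the genotype comparisons the replicate block changed no call (0 of 30 untreated and 0 of 30 irradiated). Between untreated and irradiated arrays the pairing was not borne out by every pair. With the replicate number as a block the counts were 6 in wild type, where AT5G65360 lost its call, 0 in gmi1-1 and 20 over both genotypes. Over all loci they were 585, 0 and 1485. A fit with the block and without both gmi1-1 libraries numbered 1 was chosen after seeing the data. It called 12, 11 and 20 histone genes, where 968, 1216 and 2458 of all loci were called.

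Small differences changed sign, none of them called. In wild type HTA9 was at 0.1449 with quantile normalization, and without all arrays numbered 1 HTA9 was at 0.005 and AT1G06760 at 0.035. Over both genotypes HTA9 was at 0.1565 with quantile normalization, 0.0383 with median centring and 0.0175 without all arrays numbered 1, and between -0.09 and 0.0517 with single arrays left out. There AT1G06760 was at 0.0055 with quantile normalization, and AT2G30620 at 0.0034 with array weights and 0.0033 without both libraries numbered 1 and irradiated replicate 3. In gmi1-1, quantile normalization put AT1G06760 at 0.0369, AT2G30620 at 0.0036, AT3G09480 at 0.1717 and AT5G02570 at 0.0612, and median centring put AT1G06760 at 0.04, AT3G09480 at 0.0867 and AT5G02570 at 0.1267. Array weights put AT1G06760 at 0.0369, AT2G30620 at 0.0946, AT3G09480 at 0.0398 and HTA9 at -0.1373. Without both libraries numbered 1 (also with the block) and without all arrays numbered 1, AT3G09480 was at 0.015. Without these libraries and irradiated replicate 3, AT1G06760 was at 0.17, AT2G30620 at 0.30, AT3G09480 at 0.05, HTA1 at 0.065, HTA2 at 0.225 and HTA9 at -0.01. With single arrays left out, AT1G06760 lay between -0.2467 and 0.0783, AT2G30620 between -0.39 and 0.17, AT3G09480 between -0.3433 and 0.1467, AT5G02570 between -0.1117 and 0.0383, HTA2 between -0.5617 and 0.0283 and HTA9 between -0.12 and 0.1633. Genes near background, such as HTR11 and AT5G02570, are limited by signal.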

Other observations

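Several listed histone genes are neighbours in the RefSeq gene order, and neighbours did not always share a direction. This was looked at after the values were seen. AT5G65360 and HTR11, the 2 histone genes that rose in wild type, are adjacent on chromosome 5, as are the H3.1 genes AT5G10390 and AT5G10400, at -1.01 and -0.83 in wild type. HTA12 and the H2B gene AT5G02570, also adjacent on chromosome 5, were at -0.71 and -0.57. On chromosome 2, with 1 gene between them, the H2B gene AT2G28720 was at 1.05 and HIS4 at -0.87. Beside HTR11 and AT5G65360, the next gene, AT5G65370, was under 4 on all 12 arrays, and AT5G65380, the one after it, was at -0.35 (limma adjusted p = 0.508).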
